A study of Mus musculus with 26 samples.

Results

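Alectinib, an inhibitor of the ALK receptor tyrosine kinase, was compared with its solvent DMSO in EA2, a mouse lung cancer line that carries the EML4-ALK fusion. The 8 libraries used were those labelled EA2 among the 26 of the series, with 4 alectinib and 4 DMSO libraries, 1 of each for days 1, 2, 3 and 5. Cells received 100 nM alectinib or 0.1% DMSO. The line came from a C57BL/6 mouse in which an adenovirus carrying Cas9 and guide RNAs had made the Eml4-Alk rearrangement in the lung, and all groups carry this fusion. EA2 is a single line, so no other tumor stands behind its values. Libraries of a day were paired and the 4 days served as replicates, with 1 library per treatment and day; the labels do not say whether the days came from separate cultures. The p-values therefore measure the spread of the difference between days, estimated over the 24 libraries of EA1, EA2 and EA3, 3 EML4-ALK lines with 8 libraries each on these days.

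In fusion-driven cells, ALK sends growth signals through the RAS-MAPK, PI3K-AKT and STAT3 pathways. Besides division, these pathways feed the supply of lipids, sugar and amino acids through transcription factors such as SREBP, HIF1 and ATF4, while FOXO factors and the lysosomal regulators TFEB and TFE3 are held out of the nucleus by AKT and mTOR. Cell shape and the surrounding matrix are read by the SRF-MRTF and YAP-TEAD factors, which switch on genes of the contractile cytoskeleton. MAPK target genes and chemokines are left aside here.

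Library totals ran from 5780062 to 11026517 counts, and values are given as CPM, counts scaled to equal library sizes with TMM factors, in the order of days 1, 2, 3 and 5. The first principal component of the 8 libraries (52.0% of the variance) separated the treatments. On the second (20.1%), libraries ran from -62.9 for alectinib day 2, the library with the lowest total, to 36.0 and 52.6 for alectinib and DMSO day 3. Mitochondrial genes took 1.38 to 2.02% of counts under DMSO and 1.45 to 2.43% under alectinib. Alk was present in all 8 libraries, at 107, 101, 138 and 131 CPM under DMSO and 109.8, 101, 130.3 and 99.2 CPM under alectinib, and the groups overlapped (log2 fold change -0.11 ± 0.13, adjusted p = 0.580). Its fusion partner Eml4 also overlapped between groups, with a log2 fold change of -0.07 ± 0.20 (adjusted p = 0.836). Of the 7 lung epithelial markers, Krt8, Krt18, Krt19 and Cdh1 had at least 91 counts in every library, and the summed level of all 7 was 1821 to 2687 CPM under DMSO and 561 to 1176 CPM under alectinib. Epcam had at most 7 counts in a library and was at 0 in the alectinib libraries, Cldn4 had at most 2 counts and Nkx2-1 at most 1. The 7 leukocyte markers summed to between 11.0 and 87.3 CPM under DMSO and between 12.6 and 51.1 under alectinib, almost entirely from Cd68, and the pan-leukocyte marker Ptprc had at most 4 counts. The 5 endothelial markers summed to 2.07 to 6.10 CPM and 0.346 to 1.11 CPM.

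After removal of genes with low counts, 14264 genes were tested. Alectinib libraries had 1855 genes higher (13.0% of those tested) and 1609 lower (11.3%) at an adjusted p below 0.05, in the quasi-likelihood test of edgeR, adjusted over all tested genes by the method of Benjamini and Hochberg. Log2 fold changes are alectinib over DMSO within days, from the fit over all 24 libraries. The SE after ± is the size of the log2 fold change divided by the square root of the test's F statistic. Of these 3464 genes, 98.0% moved in a single direction on all 4 days, beside 46.7% of all tested genes, and the test itself favours such genes. Among the genes that rose 954 had a log2 fold change of 1 or more, and among those that fell 947 had -1 or less. Without day 3 the calls dropped to 1101 higher and 942 lower, the lowest of the counts with 1 day left out. Gene positions are those of the mm10 annotation. More than 20% of the exon bases of Ccnd1, Ctsl, Ftl1, Gabarapl1, Nrarp, Padi1, Sgsh, Tapbp, Timp3 and Vcl lie opposite another annotated gene, and those of Lats2 overlap another gene on the same strand. The strand setting of the counting is not given in the sources used here, so the values of these genes are uncertain. The 37 gene lists described here hold 944 genes, of which 816 passed the filter. A gene that passed only through the group in which it was high had to differ, so the counts below describe the tested members and not the whole lists. The chart of the gene lists sets each list beside the 13.0% and 11.3% of all tested genes. All list counts below are to be read beside these shares. Members and lists were chosen with earlier results of these data known, so a count above the shares is a description and not independent support.

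**Figure D1:**
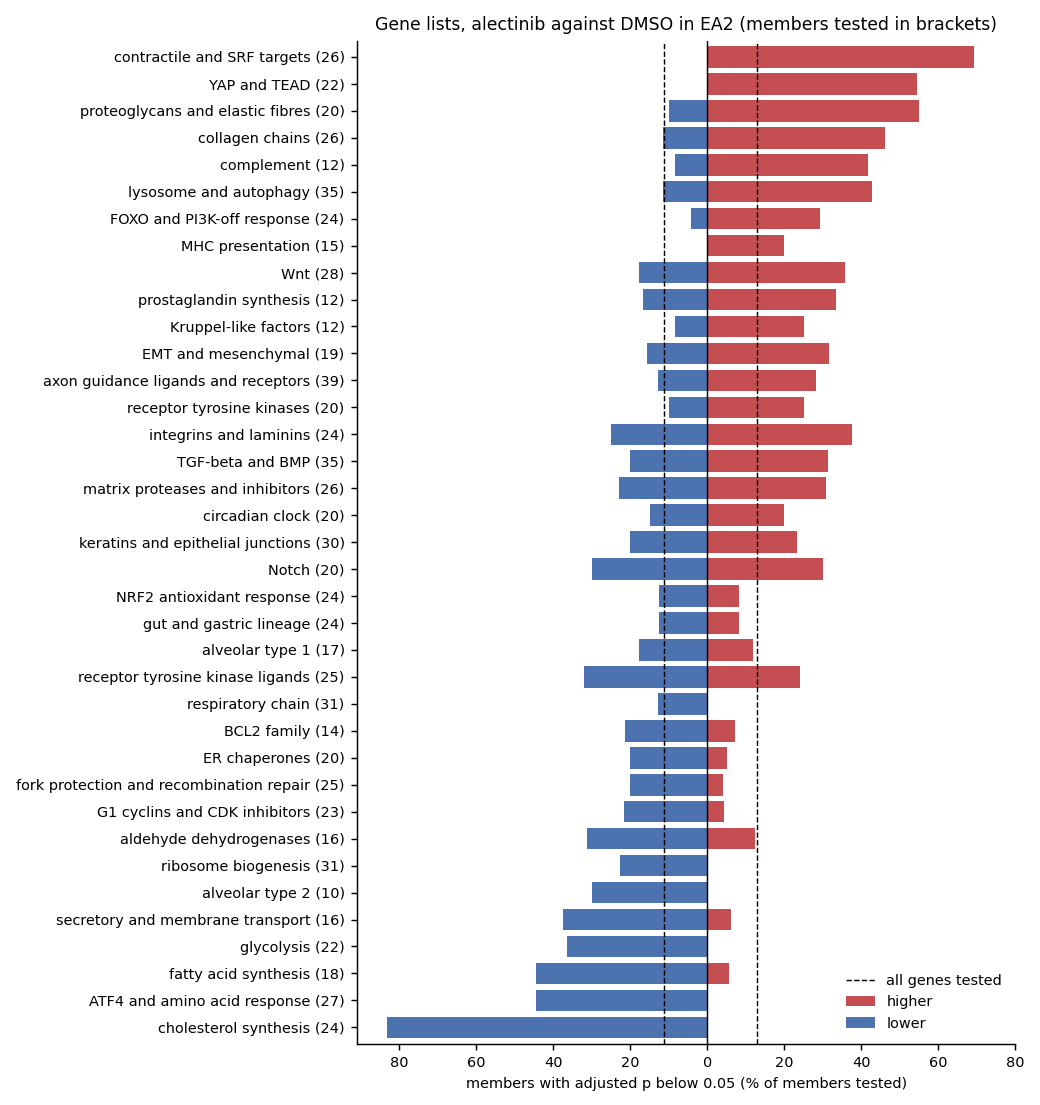
Share of the tested members of each of 37 gene lists with an adjusted p below 0.05 in EA2 (x axis, %), with lower genes drawn in blue to the left and higher genes in red to the right. Dashed lines mark the shares over all 14264 genes tested, 11.3% lower and 13.0% higher. Cholesterol synthesis reaches farthest to the left and the contractile list farthest to the right.

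The genes with the greatest falls outside the MAPK and chemokine lists included secreted and surface proteins. Mmp13 and Mmp10, matrix metalloproteinases that cut collagens and other matrix proteins, fell together. Mmp13 (chr9:7272514-7283331) was at 159, 283, 826 and 643 CPM under DMSO and 22.95, 6.58, 4.21 and 1.89 CPM under alectinib. Mmp10 (chr9:7502352-7510240) was at 44.2, 74.0, 306 and 227 CPM under DMSO and 3.97, 1.56, 1.33 and 0.334 CPM under alectinib. Every alectinib library lay below every DMSO library for both genes, with log2 fold changes of -6.00 ± 0.91 (adjusted p = 0.000454) and -6.23 ± 0.96 (adjusted p = 0.000506). Rgs16, a brake on G protein signalling, was at 206, 223, 464 and 371 CPM under DMSO and 7.35, 5.54, 5.32 and 1.22 CPM under alectinib and did not overlap between groups. Its log2 fold change was -6.05 ± 0.57 (adjusted p = 6.46e-05). The neuronal pentraxin Nptx1 was at 56.4, 60.2, 79.3 and 81.2 CPM under DMSO and 1.59, 0.692, 0.332 and 0 CPM under alectinib, again without overlap (log2 fold change -6.75 ± 0.53, adjusted p = 3.81e-06). Granzyme E (Gzme) and the mast cell protease Mcpt8, serine proteases best known from cytotoxic lymphocytes and basophils, went from 13.8, 21.8, 13.8 and 20.1 to 0.0994, 0, 0.222 and 0.222 CPM and from 21.2, 35.3, 25.7 and 25.5 to 0.596, 0.519, 0 and 0 CPM. For both genes every alectinib library was below every DMSO library, and of the leukocyte markers Cd3e and Lyz2 were at 0 in all 8 libraries, Cd68 at 71 to 871 counts, and Ptprc, Csf1r and Itgam at 0 to 6 counts. The part of other cells in these values was not tested. The tetraspanin Cd53 and the ferlin Fer1l6 fell (log2 fold changes -5.84 and -5.77), and the urea transporter Slc14a1, with 2 counts left under alectinib, was 227-fold lower by summed counts (exact 95% counting interval 62.4 to 1877, and 140.1-fold without day 3). Kappa-casein (Csn3), a milk protein, had 41, 26, 119 and 58 counts under DMSO and 0 in every alectinib library, which makes it at least 16.3-fold lower (at least 10.7-fold without day 3) against a floor of 3 counts per library. The organic anion transporter Slco4a1 was likewise at 0 in the alectinib libraries and at least 9.91-fold lower.

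Large rises included matrix, cytoskeletal and other genes. Acta2 (chr19:34241090-34255590), smooth muscle alpha-actin, was at 2.52, 2.04, 0.700 and 0.671 CPM under DMSO and 48.6, 367, 122 and 1286 CPM under alectinib. All alectinib libraries exceeded all DMSO libraries, and they differed widely among themselves, with day 5 the highest (log2 fold change 7.41 ± 0.83, adjusted p = 5.44e-05). Fibromodulin (Fmod), a collagen-binding proteoglycan, was at 0.0901, 0, 0.09995 and 0.252 CPM under DMSO and 0.795, 5.19, 70.3 and 146 CPM under alectinib. Its alectinib libraries were higher on days 3 and 5 than on days 1 and 2, and none overlapped DMSO (8.72 ± 0.88, adjusted p = 7.87e-05 on the log2 scale). Osteoglycin (Ogn) was at 0.631, 0.876, 0.800 and 1.34 CPM under DMSO and 23.7, 35.1, 45.8 and 51.9 CPM under alectinib, without overlap (5.396 ± 0.41, adjusted p = 2.87e-06 on the log2 scale). The aggrecanase Adamts5 and the collagen-binding integrin subunit Itga11 rose by 5.64 ± 0.44 (adjusted p = 1.62e-05) and 6.51 ± 0.59 (adjusted p = 8.8e-06) on the log2 scale. Fhl1, a LIM protein of muscle, had a single count among the DMSO libraries and 15, 54, 33 and 653 counts under alectinib, and was 889-fold higher by summed counts (exact 95% counting interval 159 to 35169, and 115-fold without day 5). The elastic fibre protein Fbln5 also had a single DMSO count and was 357-fold higher by summed counts (exact 95% counting interval 63.6 to 14142, and at least 27.0-fold without day 3). Hpgd, which inactivates prostaglandins, had 14, 4, 68 and 98 counts under alectinib against 1 in all DMSO libraries and was 217-fold higher by summed counts (exact 95% counting interval 38.4 to 8606, and 96.7-fold without day 5). The sodium channel Scn3a was at 2.43, 1.46, 0.800 and 1.09 CPM under DMSO and 48.3, 45.2, 61.4 and 122 CPM under alectinib. No library overlapped between groups, and the log2 fold change was 5.52 ± 0.41 (adjusted p = 2.54e-06). C4bp, of the complement regulators, had 0 counts under DMSO and at most 15 in an alectinib library, at least 3.52-fold higher (adjusted p = 0.0264). The glycosyltransferase Galnt18, with 1 DMSO count and at most 41 under alectinib, was 58.9-fold higher by summed counts (exact 95% counting interval 10.1 to 2372, and at least 1.26-fold without day 5) (adjusted p = 0.000395). C4bp (0.0936 without day 3, 0.0744 without day 5) and Galnt18 (0.0637 without day 5) lost their calls under the settings in parentheses, at the adjusted p given there.

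**Figure D2:**
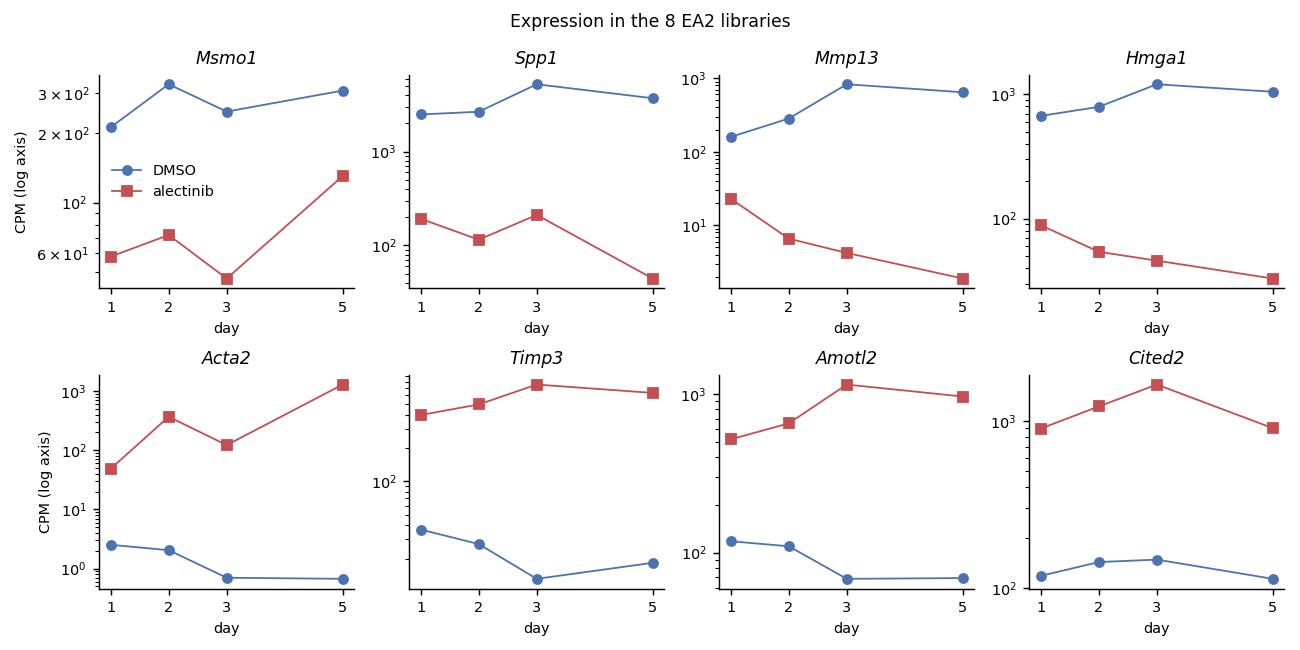
CPM on a log axis (y) against day (x) for 8 genes in the 4 DMSO libraries (blue circles) and the 4 alectinib libraries (red squares) of EA2, each point 1 library. Msmo1, Spp1, Mmp13 and Hmga1 lie lower under alectinib on every day, and Acta2, Timp3, Amotl2 and Cited2 lie higher.

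Genes of cholesterol synthesis fell as a group. Of the 24 tested, 20 were lower, against 11.3% of all genes, and the median log2 fold change was -1.05 beside 0.00 over all tested genes. The list was chosen with earlier results of these data known, so this comparison is a description. No member rose by edgeR, by an unadjusted p below 0.05 or by DESeq2, each with 0 genes. The list median per day was -1.12, -1.34, -1.19 and -0.66, smallest in size on day 5. Msmo1 (chr8:64718139-64733792), a sterol demethylating enzyme, was at 213, 328, 249 and 307 CPM under DMSO and 58.1, 72.2, 46.7 and 130.4 CPM under alectinib. Tm7sf2, a sterol reductase, was at 11.0, 11.83, 11.99 and 13.7 CPM under DMSO and 3.38, 1.38, 1.44 and 0.667 CPM under alectinib. Alectinib libraries were below DMSO libraries without overlap for both, by -1.93 ± 0.36 (adjusted p = 0.00154) and -2.91 ± 0.45 (adjusted p = 0.000416) on the log2 scale. Enzymes of both the mevalonate and the sterol steps were among the falls. They included Hmgcs1 (-0.88), Mvk (-0.996), Mvd (-1.48), Idi1 (-1.44), Fdft1 (-1.19), Sqle (-0.94) and Cyp51 (-1.30), given as log2 fold changes. Regulators of the pathway were lower as well. Insig1, which retains the SREBP complex in the endoplasmic reticulum, was at 100.2, 131, 99.8 and 176 CPM under DMSO and 32.6, 34.3, 21.4 and 69.8 CPM under alectinib. Its groups did not overlap and its log2 fold change was -1.77 ± 0.42 (adjusted p = 0.00797). Srebf2, the gene of the sterol-sensing factor SREBP2, changed by -0.76 ± 0.22 (adjusted p = 0.0224). Dhcr7, Ebp and Hsd17b7 did not pass the test. In the cholesterol list, 12 fell with days unpaired and without day 3, 13 fell without day 1 and 11 fell without day 2. Hmgcs1 (0.154 unpaired, 0.0649 without day 1, 0.108 without day 2, 0.0791 without day 3), Mvk (0.137 unpaired, 0.108 without day 1, 0.0997 without day 2, 0.140 without day 3), Idi1 (0.0804 unpaired), Sqle (0.145 unpaired, 0.0868 without day 1, 0.0953 without day 2, 0.0880 without day 3), Cyp51 (0.114 unpaired, 0.0846 without day 1, 0.0794 without day 2, 0.106 without day 3) and Srebf2 (0.0649 without day 1, 0.0762 without day 2, 0.0888 without day 3) lost their calls under the settings in parentheses, at the adjusted p given there.

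Regulatory sequence was read beside these falls. Promoters from RefSeq (GRCm38.p6) were searched from 250 bases before to 50 after the gene start, on both strands, for TCACNCCAC, the letters of a known SREBP-binding element. The letters stood in 1 of the 16 list members with a promoter in the table, and 1.36% of the 10247 tested genes with one (1 of the 13 called members). Hmgcs1, which makes HMG-CoA and fell by 0.88 on the log2 scale (adjusted p = 0.0237), was the member that held them and is shown for that reason. The 200 bases before its start (chr13:119690151-119690350, plus strand) are printed 5′ to 3′ with the match in capitals, 137 bases before the start. A match describes letters and does not show binding. Hmgcs1 (0.154 unpaired, 0.0649 without day 1, 0.108 without day 2, 0.0791 without day 3) lost its call under the settings in parentheses, at the adjusted p given there.
Hmgcs1: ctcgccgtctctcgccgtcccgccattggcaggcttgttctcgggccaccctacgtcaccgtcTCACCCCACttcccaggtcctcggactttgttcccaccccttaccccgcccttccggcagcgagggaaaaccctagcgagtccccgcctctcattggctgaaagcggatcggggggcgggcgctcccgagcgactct

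Fatty acid synthesis showed a smaller set of falls. Of 18 tested genes, 8 fell and 1 rose, with a median log2 fold change of -0.64. Fasn, the multi-domain enzyme that builds palmitate, was at 839, 874, 484 and 887 CPM under DMSO and 428, 292, 222 and 463 CPM under alectinib. Acly, which supplies its acetyl-CoA from citrate, was at 492, 541, 303 and 514 CPM under DMSO and 245, 208, 165 and 208 CPM under alectinib. Neither gene overlapped between groups, and the log2 fold changes were -1.15 ± 0.18 (adjusted p = 0.000353) and -1.14 ± 0.14 (adjusted p = 7.71e-05). The desaturases Scd1 and Fads1 changed by -1.15 ± 0.24 (adjusted p = 0.00334) and -0.996 ± 0.13 (adjusted p = 8.82e-05), and Srebf1, the gene of SREBP1, by -0.74 ± 0.16 (adjusted p = 0.00398). Fads2 fell by 1.19. Malic enzyme Me1, which provides NADPH, was the member that rose (0.60 ± 0.17, adjusted p = 0.0207). In the fatty acid synthesis list, 0 rose without day 3 or 5. Fads2 (0.0642 unpaired, 0.0502 without day 2, 0.0520 without day 3) and Me1 (0.0902 without day 3, 0.0989 without day 5) lost their calls under the settings in parentheses, at the adjusted p given there.

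In glycolysis 8 of 22 tested genes fell and none rose, by edgeR, at an unadjusted p below 0.05 or by DESeq2 (0 genes each), with a median log2 fold change of -0.54. Hexokinase 2 (Hk2), which traps glucose in the cell, was at 105, 87.6, 104 and 118 CPM under DMSO and 34.5, 25.6, 57.6 and 36.2 CPM under alectinib. The lactate exporter Slc16a3 (MCT4) was at 74.9, 93.3, 76.5 and 101 CPM under DMSO and 36.8, 29.9, 14.6 and 47.8 CPM under alectinib. Both were lower in every alectinib library than in any DMSO library (-1.48 ± 0.24, adjusted p = 0.000598, and -1.52 ± 0.27, adjusted p = 0.00131 on the log2 scale). Log2 fold changes of the other falls included those of the glucose transporter Slc2a1 (-1.56), the monocarboxylate transporter Slc16a1 (-1.41), the pyruvate dehydrogenase kinase Pdk1 (-1.34) and lactate dehydrogenase Ldha (-0.97). Other enzymes of the path, Gapdh (-0.19), Pgk1 (-0.43), Pkm (-0.36) and Eno1 (-0.49), did not pass the test. In the glycolysis list, 5 fell without day 3 or 5. Slc2a1 (0.0740 without day 3, 0.0707 without day 5) lost its call under the settings in parentheses, at the adjusted p given there.

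**Figure D3:**
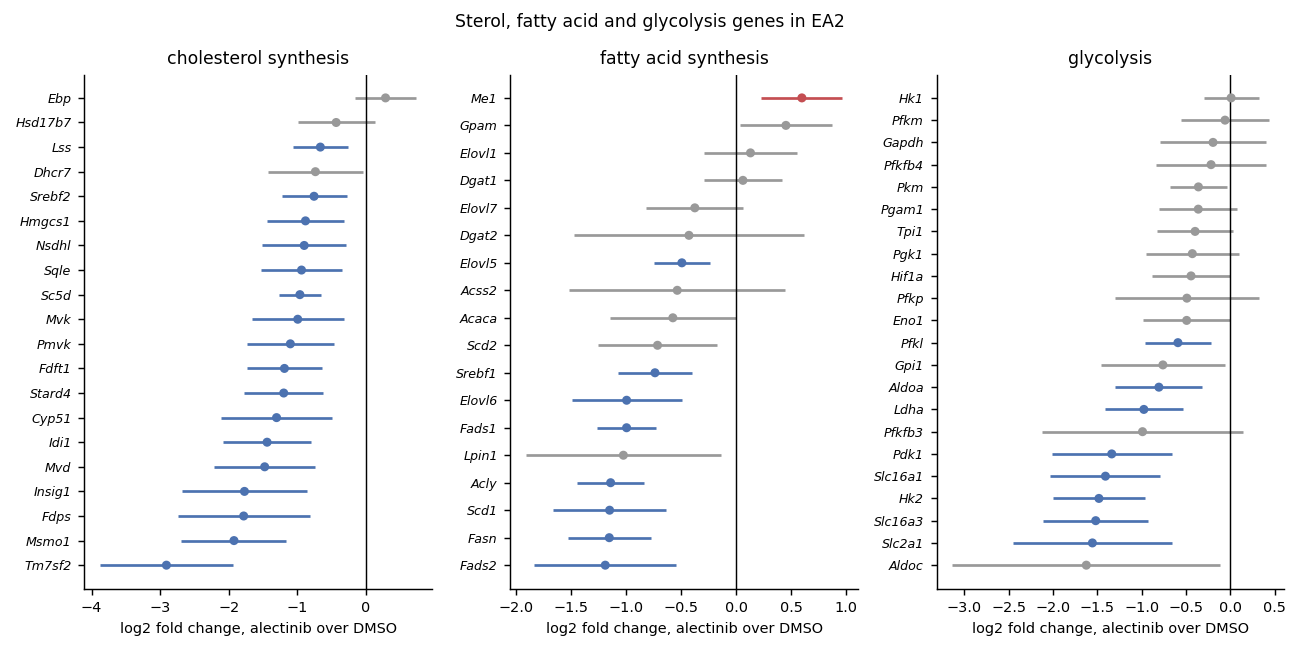
Log2 fold change of alectinib over DMSO in EA2 (x axis) for tested genes (y axis) of cholesterol synthesis, fatty acid synthesis and glycolysis. The 95% confidence intervals are built from the SE derived from the F statistic of the edgeR test. Blue and red mark genes lower or higher at an adjusted p below 0.05 and grey those that did not pass; 17 of the 20 cholesterol genes drawn are blue.

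Genes of the ATF4 response, which supply serine, cysteine and glutamine-derived building blocks, were partly lower. Of 27 tested, 12 fell and none rose (0 by DESeq2, 1 at an unadjusted p below 0.05), with a median log2 fold change of -0.59. Cth, which makes cysteine from cystathionine, was at 8.56, 9.93, 52.0 and 22.2 CPM under DMSO and 0.894, 1.04, 5.65 and 2.45 CPM under alectinib. The glutamine transporter Slc1a5 was at 100.3, 77.0, 119.9 and 91.4 CPM under DMSO and 34.5, 23.5, 37.7 and 34.6 CPM under alectinib. Neither overlapped between groups, with log2 fold changes of -3.21 ± 0.45 (adjusted p = 0.000188) and -1.58 ± 0.21 (adjusted p = 0.000137). Mthfd2 and Shmt2, mitochondrial enzymes of one-carbon metabolism, fell (log2 fold changes -1.38 and -1.08). Atf4 itself (-0.45 ± 0.25, adjusted p = 0.223) and asparagine synthetase Asns (-0.43 ± 0.28, adjusted p = 0.292) did not pass the test. Slc7a3 and Stc2 fell (-2.55 and -1.90). In the ATF4 and amino acid response list, 6 fell with days unpaired. In ribosome biogenesis 7 of 31 genes fell and 0 rose by edgeR, DESeq2 or an unadjusted p below 0.05, the falls including the nucleolar methyltransferase fibrillarin (Fbl, -0.82 ± 0.21, adjusted p = 0.0120), with Nhp2 (-0.92) and Rrp9 (-0.85). In the ribosome biogenesis list, 2 fell with days unpaired, 0 fell without day 1 or 3 and 3 fell without day 2. The list median was -0.71, -0.49, -0.49 and 0.24 on days 1, 2, 3 and 5. In the respiratory chain 4 of 31 subunits were lower, a share near the 11.3% of all tested genes. By edgeR 0 were higher (1 by DESeq2 and 1 at an unadjusted p below 0.05), and the median was -0.17. The falls included Cyc1 (-0.63), Atp5a1 (-0.52) and Sdhb (-0.51), of complexes III, V and II. In the respiratory chain list, 1 fell with days unpaired and without day 3 and 2 fell without day 1 or 2. Slc7a3 (0.181 without day 3, 0.148 without day 5, 0.0539 in EA2 alone), Stc2 (0.136 unpaired), Fbl (0.0503 without day 1, 0.0851 without day 3), Nhp2 (0.0930 unpaired, 0.0650 without day 1, 0.0809 without day 3), Rrp9 (0.0623 unpaired, 0.0638 without day 1, 0.0768 without day 3), Atp5a1 (0.0602 unpaired, 0.0624 without day 1, 0.0950 without day 2, 0.0931 without day 3) and Sdhb (0.0834 with no filter, 0.0884 unpaired, 0.0592 without day 3) lost their calls under the settings in parentheses, at the adjusted p given there.

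Lysosomal and autophagy genes were more often higher. Of 35 tested, 15 rose and 4 fell, and the median log2 fold change was 0.52. Prosaposin (Psap), the precursor of sphingolipid activator proteins, was at 586, 608, 1019 and 815 CPM under DMSO and 1258, 1456, 2507 and 1372 CPM under alectinib. Atp6v0d1, a subunit of the proton pump that acidifies the lysosome, was at 25.9, 32.6, 45.2 and 32.4 CPM under DMSO and 56.7, 92.4, 82.2 and 98.1 CPM under alectinib. The lysosomal membrane protein Lamp2 was at 236, 277, 325 and 307 CPM under DMSO and 438, 466, 669 and 532 CPM under alectinib. All 3 genes were higher in every alectinib library than in any DMSO library, by 1.10 ± 0.14 (adjusted p = 9.24e-05), 1.27 ± 0.16 (adjusted p = 7.34e-05) and 0.87 ± 0.13 (adjusted p = 0.000307) on the log2 scale. Autophagy genes with smaller rises included Ulk1 (0.65), Map1lc3b (0.63) and Gabarapl1 (0.55). The cysteine protease Ctsl went the other way, at 1205, 1393, 1706 and 1325 CPM under DMSO and 698, 758, 849 and 537 CPM under alectinib, without overlap (-0.99 ± 0.15, adjusted p = 0.000322). The regulators Tfeb (0.09 ± 0.24, adjusted p = 0.823) and Tfe3 (0.06 ± 0.14, adjusted p = 0.795) did not pass the test. Ctsf and Gpnmb rose by 2.22 and 1.54, and the sialidase Neu1 and the sulfamidase Sgsh fell (log2 fold changes -1.01 and -0.98). In the lysosome and autophagy list, 2 fell without day 3. Among ER chaperones 1 of 20 rose and 4 fell, led by Sdf2l1 (-1.48 ± 0.27, adjusted p = 0.00142) and the disulfide isomerase Pdia6 (-0.83 ± 0.12, adjusted p = 0.000187), while the main chaperone Hspa5 was at -0.20 ± 0.24 (adjusted p = 0.571). Of NRF2 targets 2 of 24 rose and 3 fell, beside 13.0% higher and 11.3% lower of all tested genes. The ferritin light chain Ftl1 rose by 0.91 ± 0.19 (adjusted p = 0.00338). The glutathione reductase Gsr, the cystine carrier Slc7a11 and transketolase Tkt fell (log2 fold changes -0.60, -1.22 and -0.53). Edem1, which marks misfolded proteins, rose by 0.51 and Creld2 fell by 0.78. In the ER chaperones list, 0 rose without day 3 or 5. In the NRF2 antioxidant response list, 1 rose without day 3 or 5. To read a lysosomal regulatory site, TCACGTGA, the core of the CLEAR element bound by TFEB and TFE3, was searched on both strands and found in 5 of the 27 list members with a promoter in the table, and 2.16% of the 10247 tested genes with one (3 of the 17 called members). Gabarapl1 (0.222 unpaired, 0.0863 without day 1, 0.112 without day 2, 0.171 without day 3), Gpnmb (0.0775 without day 1, 0.0863 without day 3), Sgsh (0.0552 with no filter, 0.0502 without day 1, 0.0774 without day 3), Slc7a11 (0.106 unpaired), Tkt (0.0703 without day 2, 0.0879 without day 3, 0.0989 without day 5) and Edem1 (0.0539 with library size alone, 0.0897 with no filter, 0.200 without day 3, 0.140 without day 5) lost their calls under the settings in parentheses, at the adjusted p given there.

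FOXO targets and genes that PI3K signalling holds down rose in 7 of 24 cases and fell in 1, with a median log2 fold change of 0.53. Cited2 (chr10:17723218-17725674), a co-regulator of CBP and p300, was at 118, 143, 148 and 114 CPM under DMSO and 899, 1218, 1647 and 904 CPM under alectinib. Irs2, an adaptor of the insulin and IGF1 receptors, was at 33.7, 30.5, 26.4 and 36.6 CPM under DMSO and 153, 159, 286 and 176 CPM under alectinib. Each alectinib library exceeded all DMSO libraries for both, with log2 fold changes of 3.12 ± 0.32 (adjusted p = 2.17e-05) and 2.56 ± 0.24 (adjusted p = 1.1e-05). Foxo1 and the CDK inhibitor p27 (Cdkn1b) rose by 0.93 ± 0.17 (adjusted p = 0.00143) and 0.92 ± 0.19 (adjusted p = 0.00279). Foxo3 (0.56 ± 0.28, adjusted p = 0.173) and Txnip (1.03 ± 0.51, adjusted p = 0.171) did not pass. The receptor Erbb3 fell by 1.74, and Klf6 rose by 0.98. In the FOXO and PI3K-off response list, 0 fell without day 3 or 5. Erbb3 (0.0837 without day 3, 0.0996 without day 5) and Klf6 (0.0652 without day 1, 0.0946 without day 2, 0.0914 without day 3, 0.120 without day 5) lost their calls under the settings in parentheses, at the adjusted p given there.

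A larger share of genes rose in the contractile list than in any other of the 37 lists, except that without day 5 it tied with proteoglycans and elastic fibres (13 of 26 and 10 of 20). The lists were chosen with earlier results of these data known, so this ranking is a description. Of 26 tested contractile genes, 18 rose, beside 13.0% of all genes, and none fell (0 by edgeR, by DESeq2 and at an unadjusted p below 0.05). Their median log2 fold change was 1.20, and 0.67, 0.94, 0.98 and 1.70 on days 1, 2, 3 and 5. The median was 0.629 among members with at least 10 counts in every library and 0.742 with EA2 libraries fitted alone. Beside Acta2 and Fhl1, the calponin Cnn1 was at 0.270, 0.146, 0.400 and 0 CPM under DMSO and 0.894, 1.73, 1.99 and 8.89 CPM under alectinib, from at most 80 counts in a library. Flnc, a filamin that links actin filaments, was at 70.4, 64.4, 56.6 and 80.2 CPM under DMSO and 169, 197, 286 and 475 CPM under alectinib. Tropomyosin 1 (Tpm1), which covers actin filaments, was at 1169, 1208, 899.7 and 919 CPM under DMSO and 3292, 4040.2, 2295 and 3993 CPM under alectinib. None of these overlapped between groups, and the log2 fold changes were 3.66 ± 0.70 (adjusted p = 0.00188), 1.95 ± 0.26 (adjusted p = 0.000137) and 1.68 ± 0.16 (adjusted p = 1.51e-05). Rises of smaller size were seen in Csrp1 (1.54), Cald1 (1.51), Cnn2 (1.502), Cnn3 (1.18), Vcl (0.82), Myh9 (0.76) and Flna (0.68), broadly expressed actin-binding and myosin genes. The myosin light chain Myl9 was at 0.0901, 0.438, 0 and 0 CPM under DMSO and 1.09, 3.81, 0.665 and 14.1 CPM under alectinib (5.17 ± 0.76, adjusted p = 0.000280 on the log2 scale, from at most 127 counts in a library). The factor Srf itself was at 0.01 ± 0.22 (adjusted p = 0.995). Of the 5 smooth muscle markers, Acta2 is given above, Cnn1 had 0 to 4 counts under DMSO and 9 to 80 under alectinib, Myh11 0 to 3 and 0 to 10, and Tagln and Des at most 3 and 1 counts in any library. Summed over these markers the level was 0.839 to 2.97 CPM under DMSO and 49.5 to 1296 CPM under alectinib, nearly all Acta2, and its part in the result was not tested. Acta2 and Actg2 are close paralogs whose reads could be split between them. Vcl (0.0626 unpaired, 0.0727 without day 3, 0.0669 without day 5), Myh9 (0.0670 without day 3), Flna (0.137 unpaired, 0.0522 without day 1, 0.0998 without day 3, 0.130 without day 5) and Actg2 (0.193 without day 5) lost their calls under the settings in parentheses, at the adjusted p given there.

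The promoter window was also searched for a strict CArG box, the SRF-binding motif, on both strands. It was present in 6 of the 23 list members with a promoter in the table, and 1.58% of the 10247 tested genes with one (4 of the 17 called members). The 200 bases before the RefSeq start of Myl9 (chr2:156775264-156775463, plus strand) and Fhl1 (chrX:56779483-56779682, plus strand), which both rose, were chosen because they hold it and are shown with the box in capitals, 161 and 102 bases before the start. The RefSeq start used for Fhl1 lies inside the gene as the mm10 annotation gives it (chrX:56731787-56793346), so this is not the sequence before its first annotated exon. The end of the Myl9 stretch also lies inside the annotated gene (chr2:156775420-156781658). Acta2 was not among the 6 members with a match, and a box that departs from the strict letters would not be found by this search.
Myl9: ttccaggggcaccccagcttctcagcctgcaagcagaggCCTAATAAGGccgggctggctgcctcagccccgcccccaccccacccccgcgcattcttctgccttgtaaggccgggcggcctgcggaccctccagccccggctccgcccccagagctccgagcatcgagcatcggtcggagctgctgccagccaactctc
Fhl1: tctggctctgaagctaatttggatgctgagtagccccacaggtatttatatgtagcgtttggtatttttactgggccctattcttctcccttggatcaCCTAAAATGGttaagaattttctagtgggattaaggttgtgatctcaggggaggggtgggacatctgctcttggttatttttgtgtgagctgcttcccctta

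In the YAP and TEAD list, which holds the factors and their regulators beside targets, 12 of 22 rose and none fell by edgeR (1 gene by DESeq2 and 1 at an unadjusted p below 0.05), with a median of 0.52. Amotl2, a target that feeds back on YAP, was at 118, 109.7, 68.4 and 69.1 CPM under DMSO and 518, 653, 1147 and 964 CPM under alectinib. The secreted matricellular protein Ccn1 (Cyr61) was at 131, 144, 101 and 81.6 CPM under DMSO and 454, 935, 1190.5 and 842 CPM under alectinib. Tgfb2, which is also a ligand of the TGF-beta family, was at 2.34, 2.48, 1.90 and 2.01 CPM under DMSO and 19.6, 35.0, 57.6 and 60.0 CPM under alectinib. Alectinib and DMSO libraries did not overlap for any of them, with log2 fold changes of 3.14 ± 0.34 (adjusted p = 2.87e-05), 2.86 ± 0.33 (adjusted p = 4.4e-05) and 4.18 ± 0.37 (adjusted p = 8.73e-06). The kinase Lats2 and the LIM protein Ajuba rose by 1.39 ± 0.20 (adjusted p = 0.000269) and 1.96 ± 0.21 (adjusted p = 3.05e-05). Ankrd1 rose by 1.19 ± 0.38 (adjusted p = 0.0334). Dlc1, a GTPase-activating protein, rose by 2.90. In the YAP and TEAD list, 7 rose without day 3 or 5 and 1 fell without day 5. The letters GGAATG of the TEAD motif, searched on both strands, were in 11 of the 17 list members with a promoter in the table, and 14.7% of the 10247 tested genes with one (8 of the 9 called members); both this list and the contractile list hold known targets. In the 200 bases before the RefSeq start of Ccn1 (chr3:145649986-145650185, minus strand) and Ankrd1 (chr19:36119845-36120044, minus strand) the match is in capitals, read on the opposite strand in Ccn1. The printed stretch of Ankrd1 lies inside the gene as the mm10 annotation gives it (chr19:36111961-36120099). Ankrd1 (0.0522 without day 1, 0.0852 without day 2, 0.118 without day 3, 0.103 without day 5) lost its call under the settings in parentheses, at the adjusted p given there.
Ccn1: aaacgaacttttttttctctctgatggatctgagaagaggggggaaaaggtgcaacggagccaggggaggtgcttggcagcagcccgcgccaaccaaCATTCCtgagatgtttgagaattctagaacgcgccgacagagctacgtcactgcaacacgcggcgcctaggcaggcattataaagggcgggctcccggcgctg
Ankrd1: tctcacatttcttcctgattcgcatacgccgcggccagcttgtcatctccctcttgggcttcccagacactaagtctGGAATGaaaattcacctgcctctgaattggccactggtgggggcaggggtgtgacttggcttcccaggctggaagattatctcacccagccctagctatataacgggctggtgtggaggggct

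**Figure D4:**
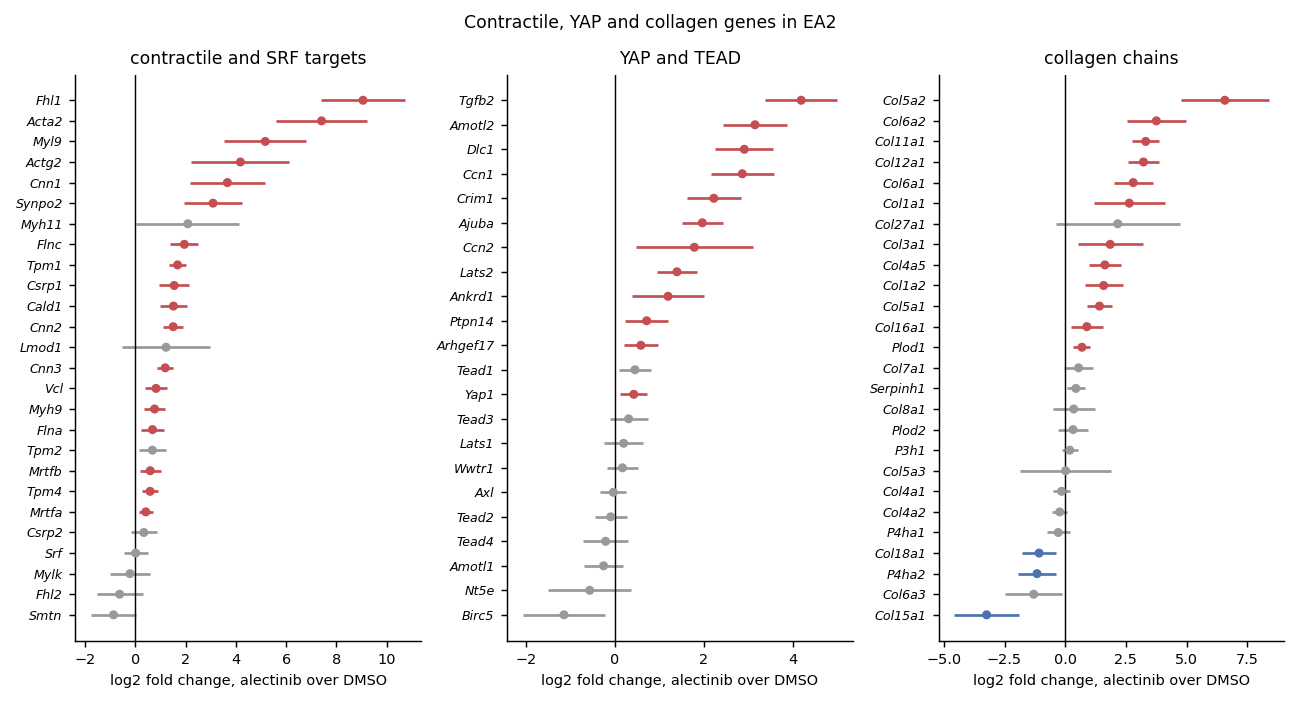
Log2 fold change of alectinib over DMSO in EA2 (x axis) for each tested gene (y axis) of the contractile, YAP and collagen lists. The 95% confidence intervals are built from the SE derived from the F statistic of the edgeR test. Red marks genes higher and blue genes lower at an adjusted p below 0.05; 18 of 26 contractile genes are red. Values of genes with no or few DMSO counts, such as Fhl1 and Col5a2, depend on the prior count.

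Many matrix genes rose. Of 26 tested collagen and collagen-processing genes, 12 rose and 3 fell (median 0.62, and 0.377 with at least 10 counts in every library), and of 20 proteoglycan and elastic fibre genes 11 rose and 2 fell (median 0.86). The fibrillar chain Col11a1 was at 26.0, 23.7, 35.3 and 42.6 CPM under DMSO and 167, 195, 561 and 492 CPM under alectinib. Col12a1, which sits on the surface of collagen fibrils, was at 7.21, 8.76, 4.998 and 6.21 CPM under DMSO and 44.7, 42.9, 63.8 and 119.9 CPM under alectinib. Col6a1, a chain of the beaded filaments near cells, was at 25.9, 20.3, 59.4 and 57.2 CPM under DMSO and 203, 163, 575 and 221 CPM under alectinib. The groups were apart in all 3, with log2 fold changes of 3.32 ± 0.25 (adjusted p = 2.93e-06), 3.22 ± 0.30 (adjusted p = 1.18e-05) and 2.80 ± 0.37 (adjusted p = 0.000126). Col15a1, a basement membrane collagen, fell from 4.50, 5.11, 8.70 and 7.13 to 1.99, 0.346, 0.111 and 0.445 CPM (-3.24 ± 0.62, adjusted p = 0.00185). The fibroblast markers summed to 57.1 to 71.3 CPM under DMSO and 119 to 241 under alectinib; their part in the result was not tested. Of the 8, Dcn had 329 to 543 counts under DMSO and 289 to 1657 under alectinib, Col1a2 109 to 239 and 212 to 747, Col1a1 2 to 13 and 13 to 139, and Col3a1 3 to 7 and 4 to 27. Pdgfrb had at most 1 and 14 counts, Pdgfra at most 6 and 2 and Thy1 at most 1 and 2, and Lum was at 0 in all libraries. Col6a2 rose by 3.75, while P4ha2 and Col18a1 fell (log2 fold changes -1.16 and -1.08). Efemp1 rose by 1.99 ± 0.20 (adjusted p = 1.64e-05), and Fbln1 and Ltbp3 fell (log2 fold changes -1.75 and -0.88). In the collagen chains list, 1 fell without day 3 or 5. In the proteoglycans and elastic fibres list, 1 fell with days unpaired and without day 2, 3 or 5. P4ha2 (0.206 unpaired, 0.0644 without day 1, 0.0667 without day 2, 0.125 without day 3, 0.110 without day 5), Col18a1 (0.108 without day 3, 0.113 without day 5, 0.128 in EA2 alone), Fbln1 (0.0637 without day 2, 0.0998 without day 3, 0.123 without day 5) and Ltbp3 (0.0767 unpaired, 0.0545 in EA2 alone) lost their calls under the settings in parentheses, at the adjusted p given there.

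Laminins and integrins changed in both directions, 9 up and 6 down of 24. Itga6, the laminin-binding alpha6 subunit, was at 533, 588, 741 and 807 CPM under DMSO and 83.0, 52.6, 93.5 and 25.0 CPM under alectinib. The laminin chain Lamb1 was at 574, 529, 1060.2 and 789 CPM under DMSO and 131, 71.3, 196 and 40.2 CPM under alectinib, whereas the related chain Lamb2 was at 65.1, 42.9, 88.3 and 71.5 CPM under DMSO and 293, 299, 557 and 326 CPM under alectinib. Every library of a treatment lay on the same side for each gene, with log2 fold changes of -3.51 ± 0.32 (adjusted p = 1.01e-05), -2.91 ± 0.29 (adjusted p = 1.68e-05) and 2.45 ± 0.22 (adjusted p = 7.35e-06). Among collagen receptors, Itga1 and Itga2 fell (log2 fold changes -3.18 and -3.39) while Itga11 rose, and Itgb5 rose by 1.61 ± 0.18 (adjusted p = 3.26e-05). Itgb6 and Lama2 rose by 2.59 and 3.78. Of 26 matrix proteases and inhibitors 8 rose and 6 fell. The inhibitors Timp3 and Timp2 were higher, Timp3 at 36.6, 27.0, 13.1 and 18.3 CPM under DMSO and 398, 496, 751 and 631 CPM under alectinib. Its libraries did not overlap (4.64 ± 0.51, adjusted p = 4.52e-05), and Timp2 rose by 1.46 ± 0.15 (adjusted p = 2.64e-05), while Timp1 (0.11 ± 0.20, adjusted p = 0.747) did not pass. The urokinase Plau and Serpinb2, an inhibitor of it, fell (log2 fold changes -1.48 and -5.37). Collagenase genes are classical AP-1 targets, so this list too holds known targets, and TGANTCA was searched on both strands and found in 7 of the 19 list members with a promoter in the table, and 6.83% of the 10247 tested genes with one (3 of the 10 called members). These letters are in capitals in the 200 bases before Mmp10 (chr9:7502142-7502341, plus strand) and Mmp13 (chr9:7272314-7272513, plus strand), 63 and 35 bases before the start.
Mmp10: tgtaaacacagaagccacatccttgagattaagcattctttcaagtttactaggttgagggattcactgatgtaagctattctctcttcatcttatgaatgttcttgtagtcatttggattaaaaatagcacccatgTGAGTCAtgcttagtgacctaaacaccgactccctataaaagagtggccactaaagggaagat
Mmp13: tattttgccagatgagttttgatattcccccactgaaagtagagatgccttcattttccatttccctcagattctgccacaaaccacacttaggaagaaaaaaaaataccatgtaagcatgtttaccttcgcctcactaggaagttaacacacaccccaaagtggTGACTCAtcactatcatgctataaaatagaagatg

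Epithelial genes split. Among keratins and junction genes 7 of 30 rose and 6 fell. Krt8, a keratin of simple epithelium, was at 249, 289.7, 215 and 249 CPM under DMSO and 72.7, 52.1, 10.1 and 60.2 CPM under alectinib. Its partner Krt18 was at 1303, 1648, 1997 and 1462 CPM under DMSO and 613, 596, 501 and 235 CPM under alectinib. Both lay lower in each alectinib library (-2.61 ± 0.39, adjusted p = 0.000346, and -1.79 ± 0.33, adjusted p = 0.00146 on the log2 scale). E-cadherin (Cdh1) was at 52.7, 44.1, 96.7 and 65.5 CPM under DMSO and 182, 144, 272 and 153 CPM under alectinib, and desmoplakin (Dsp) rose with it. Neither overlapped DMSO, with log2 fold changes of 1.55 ± 0.20 (adjusted p = 0.000108) and 1.60 ± 0.34 (adjusted p = 0.00367). N-cadherin (Cdh2) rose at the same time, at 168, 158, 102 and 124 CPM under DMSO and 551, 669, 682 and 953 CPM under alectinib (2.37 ± 0.23, adjusted p = 1.62e-05), and so did Snai2 (1.25 ± 0.26, adjusted p = 0.00318). Vim rose by 0.82 ± 0.22 (adjusted p = 0.0151). The secreted phosphoprotein osteopontin (Spp1) was at 2496, 2664, 5236 and 3713 CPM under DMSO and 192, 115, 212 and 44.4 CPM under alectinib. Every alectinib library was lower (-4.78 ± 0.39, adjusted p = 4.88e-06), and the intermediate filament Nes fell by 1.56. Krt7, Krt14 and Krt80 rose by 3.30, 2.25 and 1.83, Cldn2 and Grhl2 fell (log2 fold changes -3.38 and -3.03), and the matrix protein Sparc rose by 1.497. In the keratins and epithelial junctions list, 4 rose without day 3. Of alveolar genes, 10 of 22 type 2 and 17 of 22 type 1 markers passed the filter. The type 2 list had 0 higher by edgeR (1 without day 5, 1 by DESeq2 and 1 at an unadjusted p below 0.05) and 3 lower. The type 1 list had 2 higher and 3 lower. Of all tested genes, 13.0% were higher and 11.3% lower. The mucin Muc1 fell by 3.05, and so did Rtkn2 (-1.79) and Gprc5a (-1.14). The water channel Aqp5 fell by 1.36 and the caveolin Cav1 rose by 1.04 ± 0.19 (adjusted p = 0.00153). Sox9, a factor of distal lung progenitors, fell by 2.47 (adjusted p = 0.00542), and the alarmin Il33 fell by 2.99 (adjusted p = 0.00346). Snai2 (0.101 unpaired), Vim (0.0847 without day 3, 0.0775 without day 5), Krt14 (0.0755 without day 3) and Gprc5a (0.0555 without day 3) lost their calls under the settings in parentheses, at the adjusted p given there.

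Receptors and ligands changed on both sides. Of 20 receptor tyrosine kinases 5 rose and 2 fell. Among the rises was Met, the receptor of hepatocyte growth factor, at 143, 145, 103 and 134 CPM under DMSO and 254, 265, 272 and 355 CPM under alectinib. The collagen receptor Ddr1 was at 85.2, 80.5, 121 and 109 CPM under DMSO and 232, 230.1, 316 and 194 CPM under alectinib. Neither overlapped, with log2 fold changes of 1.13 ± 0.21 (adjusted p = 0.00179) and 1.30 ± 0.17 (adjusted p = 0.000120), and Erbb2 rose by 0.71 ± 0.15 (adjusted p = 0.00389). Egfr rose by 1.83, and Fgfr2, with 0 counts under DMSO, was at least 3.10-fold higher (at least 1.45-fold without day 5) (adjusted p = 0.000297). Mertk fell by 2.64. In the receptor tyrosine kinases list, 1 fell with days unpaired and without day 1 or 3 and 0 fell without day 5. Of 25 ligands 6 rose and 8 fell. EGFR ligands were among the falls. Areg was at 69.4, 80.8, 208 and 94.3 CPM under DMSO and 6.56, 3.64, 13.1 and 3.11 CPM under alectinib, and Btc, Hbegf, Tgfa and Ereg fell (log2 fold changes -3.39, -2.31, -1.89 and -0.93). Areg was lower in all alectinib libraries (-4.15 ± 0.36, adjusted p = 7.35e-06). Neuregulin Nrg1, a ligand of ERBB3 and ERBB4, rose instead, at 33.4, 28.2, 23.3 and 24.3 CPM under DMSO and 72.2, 57.8, 74.0 and 70.4 CPM under alectinib. It did not overlap (1.34 ± 0.20, adjusted p = 0.000318), and Pdgfc rose by 1.35 ± 0.19 (adjusted p = 0.000159). Igf1 and Vegfc rose by 3.74 and 1.66, and Fgf1 fell by 2.94. Hgf, from 2 DMSO counts, was 22.4-fold higher by summed counts (exact 95% counting interval 5.78 to 191). In the TGF-beta and BMP list 11 of 35 rose and 7 fell. Inhba, the activin A subunit, was at 64.0, 49.6, 92.8 and 71.3 CPM under DMSO and 327, 375, 601 and 593 CPM under alectinib, and the receptor Tgfbr2 at 156, 142, 108 and 119.9 CPM under DMSO and 427, 465, 639 and 698 CPM under alectinib. Both were higher throughout (2.76 ± 0.44, adjusted p = 0.000648, and 2.07 ± 0.20, adjusted p = 1.31e-05), while Bmp7, Bmp2 and the BMP antagonist Grem1 fell (log2 fold changes -3.65, -2.79 and -2.89). Smad9 rose by 3.10, and Inhbb, from a single DMSO count, was 23.6-fold higher by summed counts (exact 95% counting interval 3.77 to 976, and 10.1-fold without day 5). In the TGF-beta and BMP list, 4 fell without day 5. Mertk (0.0516 unpaired, 0.0535 without day 1, 0.0736 without day 5), Ereg (0.280 unpaired, 0.0890 without day 1, 0.0754 without day 2, 0.110 without day 3, 0.0536 without day 5) and Inhbb (0.0660 unpaired, 0.0588 without day 3, 0.117 without day 5) lost their calls under the settings in parentheses, at the adjusted p given there.

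In the Notch list 6 of 20 rose and 6 fell. Rbpj, the DNA-binding partner of Notch, was at 164, 159.6, 184 and 188 CPM under DMSO and 61.2, 45.7, 87.9 and 34.8 CPM under alectinib, and Hey2, a Notch-responsive repressor, at 1, 0, 1 and 2 counts under DMSO and 31, 28, 53 and 67 counts under alectinib. The first was lower and the second higher in each alectinib library (-1.68 ± 0.21, adjusted p = 8.98e-05, and 5.61 ± 0.75, adjusted p = 0.000358). Numbl and Dtx4 rose by 1.79 and 1.35, and the ligand Dll4 and the feedback gene Nrarp fell (log2 fold changes -3.05 and -2.67). In the Wnt list 10 of 28 rose and 5 fell. The receptor Fzd8 and the R-spondin receptor Lgr4 rose by 1.93 ± 0.24 (adjusted p = 6.92e-05) and 1.85 ± 0.25 (adjusted p = 0.000152). The ligands Wnt4, Wnt9a and Wnt11 rose by 3.52, 2.85 and 2.76. Wnt7b, the antagonist Dkk2 and the receptor Fzd4 fell (log2 fold changes -3.44, -4.77 and -2.43). Of axon guidance genes 11 of 39 rose and 5 fell. Sema3d was at 0.270, 0.292, 0.500 and 1.09 CPM under DMSO and 4.37, 8.14, 35.0 and 34.5 CPM under alectinib and Sema7a at 37.9, 28.0, 98.7 and 58.9 CPM under DMSO and 3.28, 1.38, 1.77 and 0.778 CPM under alectinib. These semaphorins moved apart on every day, by 5.08 ± 0.45 (adjusted p = 7.35e-06) and -4.90 ± 0.60 (adjusted p = 7.13e-05). The Eph receptors Ephb6 and Epha7 rose by 3.18 and 2.57, and Epha5 and Sema4b fell (log2 fold changes -1.66 and -1.09). In the axon guidance ligands and receptors list, 3 fell without day 1 and 2 fell without day 2 or 5. Epha5 (0.0751 without day 1, 0.0732 without day 2, 0.0736 without day 3, 0.188 without day 5) lost its call under the settings in parentheses, at the adjusted p given there.

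Genes of survival and the cell cycle included a few large falls. Bcl2, which blocks apoptosis, was at 71.4, 59.3, 71.1 and 73.5 CPM under DMSO and 20.5, 8.48, 19.1 and 12.01 CPM under alectinib. Its relative Bcl2l1 (BCL-XL) was at 120.3, 139.6, 195 and 139 CPM under DMSO and 45.7, 58.3, 42.1 and 38.1 CPM under alectinib. The pro-apoptotic BH3 gene Bmf was at 7.30, 4.23, 13.9 and 11.82 CPM under DMSO and 59.1, 36.4, 54.6 and 18.2 CPM under alectinib. All 3 were without overlap, with log2 fold changes of -2.26 ± 0.21 (adjusted p = 8.8e-06), -1.68 ± 0.23 (adjusted p = 0.000158) and 2.15 ± 0.47 (adjusted p = 0.00482). Bcl2l11 (BIM) was at -0.27 ± 0.29 (adjusted p = 0.546) and Mcl1 at 0.18 ± 0.15 (adjusted p = 0.415), neither past the test; of 14 family members 1 rose and 3 fell, the last of them Bid (-0.46). The desmosomal protein Perp was at 16.4, 14.3, 16.1 and 13.5 CPM under DMSO and 50.7, 76.9, 124 and 154 CPM under alectinib, all higher than DMSO (2.63 ± 0.24, adjusted p = 1.01e-05), and the death receptor Fas rose by 4.33. Among 23 G1 genes 5 fell and 1 rose, with cyclin D1 (Ccnd1) at 1208, 1214, 948 and 1274 CPM under DMSO and 285, 283, 338 and 346 CPM under alectinib. It was lower in every alectinib library (-1.89 ± 0.25, adjusted p = 0.000106), as was the repressor E2f8 (-2.71 ± 0.33, adjusted p = 6.92e-05), and E2f2 fell by 2.06. Of 25 repair genes 5 fell, led by Bard1 (-1.42 ± 0.28, adjusted p = 0.00225) with Rad51b and Fancd2 (-1.14 and -1.13), and Fancc rose by 0.76. In the fork protection and recombination repair list, 0 rose with days unpaired and without day 1, 3 or 5, 2 fell with days unpaired, 1 fell without day 1 or 3 and 3 fell without day 2. Bid (0.217 with no filter, 0.101 without day 1, 0.129 without day 3), Rad51b (0.0881 unpaired, 0.0511 without day 1, 0.0842 without day 2, 0.110 without day 3, 0.183 without day 5), Fancd2 (0.0858 unpaired, 0.0838 without day 1, 0.122 without day 3) and Fancc (0.0701 with library size alone, 0.0876 with no filter, 0.107 unpaired, 0.0951 without day 1, 0.153 without day 3, 0.170 without day 5) lost their calls under the settings in parentheses, at the adjusted p given there.

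Smaller lists held single genes of large change. In complement 5 of 12 rose and 1 fell. C1ra, a protease of the C1 complex, was at 1.98, 2.63, 3.70 and 4.11 CPM under DMSO and 44.4, 42.2, 76.8 and 36.6 CPM under alectinib, and clusterin (Clu) at 51.4, 44.1, 25.7 and 23.98 CPM under DMSO and 243, 187, 185 and 97.2 CPM under alectinib. Both were higher in all alectinib libraries (3.98 ± 0.37, adjusted p = 1.01e-05, and 2.30 ± 0.21, adjusted p = 1.01e-05). C1s1, the partner protease of C1ra, rose by 3.84. In the complement list, 0 fell with days unpaired and without day 2 or 5. Antigen presentation had 3 of 15 genes higher, namely tapasin (Tapbp, 1.15 ± 0.24, adjusted p = 0.00291), its relative Tapbpl (1.18) and the peptide transporter Tap2 (2.04), with 0 lower by edgeR or DESeq2 (1 at an unadjusted p below 0.05), while H2-K1 (-0.58 ± 0.49, adjusted p = 0.426) and B2m (0.29 ± 0.19, adjusted p = 0.303) did not pass. Aldh1a1, which oxidises retinal, was at 4.05, 3.94, 6.90 and 6.29 CPM under DMSO and 55.8, 175, 257 and 205 CPM under alectinib, and its relative Aldh1a3 at 3.24, 2.77, 15.99 and 10.7 CPM under DMSO and 0.397, 0.346, 0.443 and 0 CPM under alectinib. They moved in opposite directions without overlap (4.88 ± 0.48, adjusted p = 1.64e-05, and -4.67 ± 0.78, adjusted p = 0.000866), in a list in which 2 of 16 rose and 5 fell. Aldh6a1 rose by 1.13, and Aldh1l1 and Aldh2 fell (log2 fold changes -1.69 and -0.68). In the aldehyde dehydrogenases list, 1 rose with days unpaired and without day 3, 2 fell with days unpaired, 3 fell without day 1 or 2 and 1 fell without day 3 or 5. Among prostaglandin genes (4 up and 2 down of 12), the synthase Ptges fell by 2.59 and the receptor Ptger4 rose by 2.40 ± 0.33 (adjusted p = 0.000173). The cyclooxygenase Ptgs2 rose by 1.95 and the carrier Slco2a1 fell by 1.46. In the prostaglandin synthesis list, 2 rose without day 2, 3 or 5. The multidrug transporters Abcb1a and Abcb1b fell (log2 fold changes -2.30 and -1.47), in a transport list with 1 of 16 higher and 6 lower. The water channel Aqp1 fell by 2.99, its relative Aqp8, with 1 count under alectinib, was 36.5-fold lower by summed counts (exact 95% counting interval 6.21 to 1475, and at least 1.41-fold without day 3), and the sodium channel subunit Scnn1a rose by 2.15. In the secretory and membrane transport list, 2 rose without day 1. Tap2 (0.0914 unpaired), Aldh6a1 (0.0860 unpaired, 0.0599 without day 3), Aldh1l1 (0.0649 unpaired, 0.0751 without day 2, 0.140 without day 3, 0.171 without day 5, 0.0764 in EA2 alone), Aldh2 (0.0613 unpaired, 0.159 without day 3, 0.216 without day 5, 0.0759 in EA2 alone), Ptgs2 (0.0791 without day 1, 0.105 without day 2, 0.113 without day 3, 0.118 without day 5), Aqp1 (0.0680 without day 1, 0.0539 without day 2) and Aqp8 (0.0511 without day 3) lost their calls under the settings in parentheses, at the adjusted p given there.

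Among the shorter lists of transcription factors and lineage genes, Kruppel-like factors had 3 of 12 higher and 1 lower, the clock list 4 of 20 higher and 3 lower, and the gut list 2 of 24 higher and 3 lower. Of all tested genes, 13.0% were higher and 11.3% lower. The EMT list had 6 of 19 higher and 3 lower. Klf10 and Klf11 rose by 0.75 and 0.86 and Klf5 fell by 0.98. Of the clock genes, the repressors Per1 and Cry2 and the factor Tef rose by 1.14, 0.71 and 0.99, while Cry1, Ciart and Arntl2 fell (log2 fold changes -0.97, -1.22 and -1.03). Of the gut genes, Krt20 fell by 2.82, and Muc5ac, with 3 counts under alectinib, was 7.36-fold lower by summed counts (exact 95% counting interval 2.26 to 38.0, and 13.2-fold without day 1). Foxc2 had 10 counts in the DMSO library of day 3 and 0 in the other 7 libraries (adjusted p = 0.0202), so its call rests on that library. In the Kruppel-like factors list, 1 rose with days unpaired and without day 1 or 5, 0 rose without day 2 or 3 and 0 fell without day 1, 3 or 5. In the circadian clock list, 1 rose with days unpaired and without day 2 or 3 and 2 rose without day 1 or 5. Klf10 (0.0801 unpaired, 0.0706 without day 2, 0.0616 without day 3, 0.0643 without day 5), Klf11 (0.0595 unpaired, 0.149 without day 1, 0.113 without day 2, 0.112 without day 3), Klf5 (0.0546 without day 1, 0.0856 without day 3, 0.0669 without day 5), Per1 (0.193 unpaired, 0.0843 without day 1, 0.0992 without day 2, 0.0998 without day 3), Cry2 (0.0503 with DESeq2 size factors, 0.170 unpaired, 0.125 without day 2, 0.189 without day 3, 0.0744 without day 5), Cry1 (0.0586 without day 1), Ciart (0.113 unpaired), Arntl2 (0.0568 without day 2, 0.0808 without day 3, 0.104 without day 5), Muc5ac (0.0644 without day 1, 0.0919 without day 2, 0.0862 without day 3, 0.0818 without day 5) and Foxc2 (0.170 in DESeq2, 0.0733 unpaired, 1.00 without day 3) lost their calls under the settings in parentheses, at the adjusted p given there.

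Where EA2 differed from the other lines was tested with the contrast of alectinib effects in the same fit. The EA2 effect differed from the EA1 effect in 924 genes (6.48%) and from the EA3 effect in 438 (3.07%). A difference from both in a single direction was found in 222 genes (1.56%), 86 above and 136 below. EA1 and EA3 each had their own DMSO libraries, but the 8 EA2 libraries enter both contrasts, so the contrasts are not independent; the size of their overlap is given as a description. Without day 3, 434 genes differed from EA1 and 145 from EA3, and without day 5, 461 and 178. For the single genes named below, the differences from EA1 and EA3 were not rechecked under other settings. Fbln5 stood at 7.89, against 0.93 in EA1 and 0.05 in EA3, and Fhl1 at 9.06, against 5.17 in EA1 and 3.76 in EA3; both EA2 values rest on a single DMSO count and depend on the prior count. The intestinal cadherin Cdh17 was at 18.5, 22.5, 14.3 and 14.7 CPM under DMSO and 38.8, 37.4, 29.9 and 37.1 CPM under alectinib in EA2, all higher under alectinib (1.05 ± 0.17, adjusted p = 0.000557). Its log2 fold change was -2.61 in EA1 and -3.32 in EA3 (adjusted p = 7.22e-06 against EA1 and 1.09e-06 against EA3). Cited2, Perp and Clu rose more in EA2, with -0.14 in EA1 and 1.07 in EA3 for Cited2, 0.55 in EA1 and 0.03 in EA3 for Perp and 0.51 in EA1 and 0.63 in EA3 for Clu. Prl2c2 and Prl2c3, near-identical prolactin-family copies whose reads may be split, were also above both lines.

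Below both lines, creatine kinase B (Ckb) was at 26.5, 30.1, 40.5 and 43.0 CPM under DMSO and 1.79, 0.866, 0.443 and 1.11 CPM under alectinib in EA2, without overlap (-5.03 ± 0.49, adjusted p = 1.51e-05). Its log2 fold change was -1.18 in EA1 and -0.11 in EA3 (adjusted p = 0.00425 against EA1 and 0.00110 against EA3). Padi2, which converts arginine in proteins to citrulline, was at 66.2, 43.5, 101 and 82.0 CPM under DMSO and 13.5, 3.29, 0.887 and 0.445 CPM under alectinib, lower on every day (-4.60 ± 0.76, adjusted p = 0.000826). In the other lines it was -0.12 in EA1 and -0.13 in EA3 (adjusted p = 0.0171 against EA1 and 0.0301 against EA3). Padi4 had at most 66 counts in an EA2 library and was 131-fold lower by summed counts (exact 95% counting interval 23.1 to 5198, and 73.2-fold without day 3). The proteoglycan decorin (Dcn) was at 37.5, 48.0, 54.3 and 40.0 CPM under DMSO and 165, 78.2, 89.7 and 32.1 CPM under alectinib, the groups overlapped, and the difference in EA2 did not pass (0.81 ± 0.32, adjusted p = 0.0806). In EA1 and EA3 its log2 fold change was 5.95 in EA1 and 7.05 in EA3 (adjusted p = 0.00357 against EA1 and 0.00202 against EA3). The sulfotransferase Hs6st2 fell in EA2 (-1.89 ± 0.42, adjusted p = 0.00482) beside 2.88 in EA1 and 2.21 in EA3. Il22ra1, a subunit of the interleukin-22 receptor, had 10, 6, 6 and 4 counts under DMSO and 0 under alectinib, at least 1.83-fold lower. Among list members, Bcl2 (-0.57 in EA1 and -0.33 in EA3), Krt8 (-0.56 in EA1 and -0.48 in EA3) and Notch1 (EA2 -1.58, then 0.32 in EA1 and 0.51 in EA3) were below both lines.

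**Figure D5:**
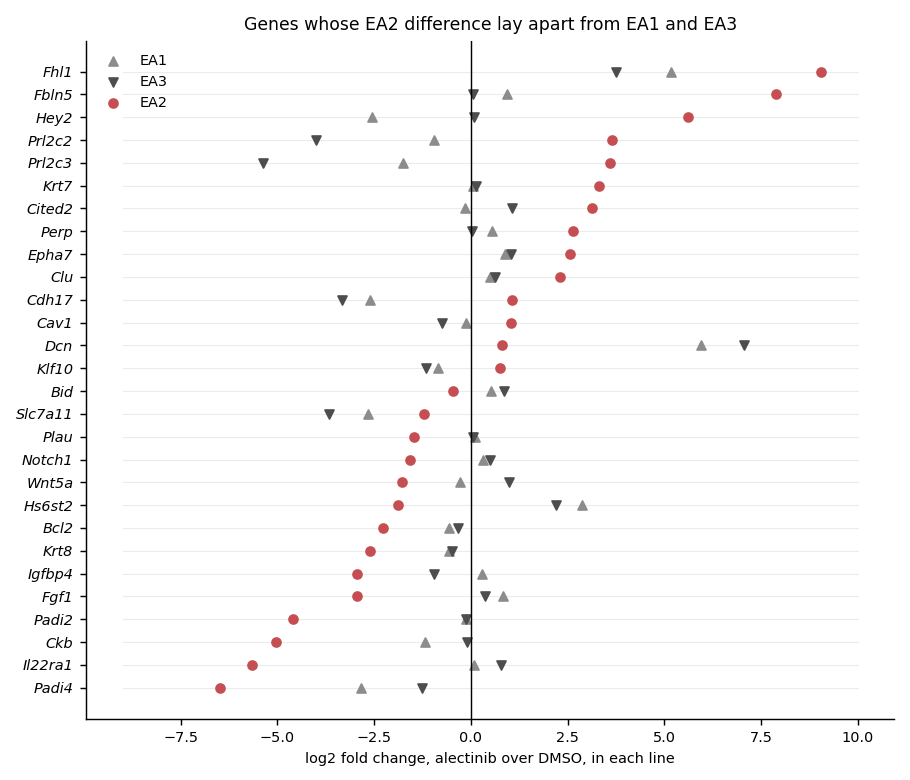
Log2 fold change of alectinib over DMSO (x axis) in EA2 (red circles), EA1 (light grey triangles) and EA3 (dark grey inverted triangles) for the 28 named genes whose EA2 effect differed from both other lines at an adjusted p below 0.05. Points are fitted values and carry no error bars; Fhl1, Fbln5 and Hey2 lie far to the right in EA2 and Padi2, Ckb and Il22ra1 far to the left.

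Whether the EA2 difference grew or shrank between day 1 and day 5 was tested as its change per doubling of days. No gene passed by edgeR (0 of 14264, smallest adjusted p 0.0682), while 846 had an unadjusted p below 0.05 and DESeq2 called 60. Acta2 and Mmp13 were among the DESeq2 calls (adjusted p = 2.36e-06 for each) but did not pass in edgeR (adjusted p = 0.0791 and 0.272), and Fmod passed in neither (0.898 in edgeR and 0.756 in DESeq2).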

How the data were processed

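Counts were the deposited values. Per the labels, the authors prepared stranded poly(A) libraries (TruSeq). Per the paper's methods, they checked reads with FastQC, trimmed them with bbduk, aligned them to mm10 with STAR and counted reads per gene with STAR; versions, annotation release and strand column are not given in the sources used here. The table held 55415 rows; 24 named by a number (0.147 to 0.201% of EA2 counts) were dropped.

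The 24 libraries of EA1, EA2 and EA3 on days 1, 2, 3 and 5 were fitted together with edgeR 4.0.16 (R 4.3.3), after filterByExpr and TMM scaling, with a block for each line and day and an alectinib term per line, using the robust quasi-likelihood test. The labels give the days, which pair the libraries. The deviations of EA2 libraries of the same day correlated at -0.052, -0.175, 0.549 and -0.300, so the days did not deviate together throughout. Different days gave -0.539 to 0.488, and the alectinib libraries of days 1, 2 and 5 correlated best with the DMSO libraries of days 3, 1 and 2 (0.110, 0.488 and 0.335). These values cannot tell whether the EA2 day labels are right, so values given by day hold only as labelled. Alternatives were DESeq2 1.42.0, other scalings and filters, no block, EA2 libraries alone and leaving out each day. The script was tested on simulated data, where fold changes were recovered without bias and false calls were few, but most planted changes of log2 size 1 were not called. A first pass mark on the number of planted genes called was not met and was replaced after this was seen. The simulated days differed only by planted changes and random spread, so the test does not give the error rates of these data.

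Members and lists were chosen with earlier results of these data known. Genes were named by rule: the 12 largest rises and 12 largest falls with an average log2 CPM of at least 3 outside the MAPK and chemokine lists, up to 3 of each per list, and the 6 farthest on each side from both other lines, with markers. Of 280 tested genes named, 90 fall outside it and were added after their values were seen. A few genes and 1 list are not reported here. Intervals cover counting error only. Promoters from RefSeq (GRCm38.p6) were searched from 250 bases before to 50 after the gene start, and the 200 bases before it are printed.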

Additional observations from a re-analysis of the deposited data

Results flagged for a closer look

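In each named gene, the 4 DMSO and the 4 alectinib libraries of EA2 were screened for a library far from the other 3 with Dixon's test, over the 534 groups with more than 3 counts in some library. It marked 39 (7.30%), and chance marks about 1 in 20 groups. Day 3 held 20 of them and day 5 13, beside 5 on day 1 and 1 on day 2. The DMSO library of day 1 stood apart for Hs6st2 (13.9 CPM, nearest 8.03). The alectinib library of day 1 stood apart for Fbln5 (2.09 CPM, nearest 11.6), Fgf1 (3.08 CPM, nearest 0.519), Il33 (28.4 CPM, nearest 8.31) and Lama2 (3.68 CPM, nearest 2.89). The DMSO library of day 2 stood apart for Ltbp3 (331 CPM, nearest 496). The DMSO library of day 3 stood apart for Csn3 (11.9 CPM, nearest 4.86), Dll4 (6.50 CPM, nearest 2.94), Fasn (484 CPM, nearest 839), Foxc2 (0.9995 CPM, nearest 0), Hbegf (301 CPM, nearest 139), Klf10 (129.9 CPM, nearest 89.2), Snai2 (71.6 CPM, nearest 35.3) and Txnip (211 CPM, nearest 68.5). The alectinib library of day 3 stood apart for Col6a1 (575 CPM, nearest 221), Cry2 (32.1 CPM, nearest 18.9), Ctsf (7.87 CPM, nearest 3.29), Eno1 (582 CPM, nearest 1044), Gpnmb (8.31 CPM, nearest 5.56), Lamb2 (557 CPM, nearest 326), Mertk (3.10 CPM, nearest 0.519), Numbl (104 CPM, nearest 66.8), Psap (2507 CPM, nearest 1456), Slco2a1 (85.8 CPM, nearest 44.0), Txnip (579 CPM, nearest 127) and Vegfc (21.6 CPM, nearest 12.4). The DMSO library of day 5 stood apart for Cav1 (299.6 CPM, nearest 265), Mcl1 (180.0 CPM, nearest 199), Muc1 (3.35 CPM, nearest 7.45) and Tapbpl (4.95 CPM, nearest 5.85). The alectinib library of day 5 stood apart for Actg2 (3.78 CPM, nearest 0.692), Cnn1 (8.89 CPM, nearest 1.99), Col5a2 (3.45 CPM, nearest 0.665), Fhl1 (72.6 CPM, nearest 9.35), Galnt18 (4.56 CPM, nearest 0.866), Hsd17b7 (72.6 CPM, nearest 29.6), Inhbb (1.22 CPM, nearest 0.443), Itga1 (7.12 CPM, nearest 3.98) and Srebf2 (408 CPM, nearest 259.8). A cause was not tested.

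The following named genes were marked because the alectinib effect in EA2 differed from the effect in EA1 and in EA3 at an adjusted p below 0.05 in edgeR, in a single direction. Values are the EA2 log2 fold change minus the nearer of the other lines. These marks were not rechecked gene by gene under other settings or with a day left out. The EA2 effect lay above both others for Fbln5 (6.96), Hey2 (5.51), Prl2c3 (5.36), Prl2c2 (4.60), Fhl1 (3.89), Cdh17 (3.67), Krt7 (3.16), Perp (2.08), Cited2 (2.04), Clu (1.67), Klf10 (1.61), Epha7 (1.53), Slc7a11 (1.44) and Cav1 (1.16). It lay below both for Il22ra1 (-5.73), Dcn (-5.14), Padi2 (-4.47), Hs6st2 (-4.10), Ckb (-3.85), Padi4 (-3.64), Fgf1 (-3.32), Krt8 (-2.05), Igfbp4 (-1.99), Notch1 (-1.90), Bcl2 (-1.69), Plau (-1.54), Wnt5a (-1.51) and Bid (-0.99). Values of Fbln5, Fhl1, Il22ra1, Padi4, Hey2 and the Prl2c genes rest on few counts in a group and depend on the prior count.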

How the results depend on the processing

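Counts of genes at an adjusted p below 0.05 held within 1.5 times for most settings. Requiring a log2 fold change of at least 1 left 954 higher and 947 lower. With 1 day left out, the higher genes numbered 1101 to 1394 and the lower 942 to 1333, the lowest without day 3; the genes that differed from EA1 numbered 434 to 1043 and from EA3 145 to 339. DESeq2 gave 1797 and 1007 such genes and no filter on low counts 2123 and 1422. The change over days was 0 genes with any day left out, 60 in DESeq2 and 21 with no filter. Without the replicate block, so without pairing by day, 1597 genes were higher, 1253 lower, 739 differed from EA1 and 364 from EA3. With library size alone the median of all genes moved to -0.04.

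Of the 195 called genes that the naming rule gave, 51 lost the call without some day, and the fit without the block is given beside each gene it changed. These checks covered the EA2 effect and not the differences of single genes from EA1 and EA3. Several genes that did not pass changed sign. Srf was at -0.0108 in DESeq2 and with its size factors, at -0.0110 in EA2 alone and at -0.0405 with library size alone. With 1 day left out Srf ran from -0.174 to 0.158, Bcl2l11 from -0.551 to 0.140, Eml4 from -0.175 to 0.00409, Tfe3 from -0.00523 to 0.118 and Tfeb from -0.0705 to 0.288. List medians stayed within the spread between days in 413 of 444 recomputations; of 22 lists with a median of at least 0.3 in size, 2 (alveolar type 1, keratins and junctions) changed sign under some setting; the keratin median was 0.419 with at least 10 counts in every library. With Epcam at its bound the keratin median went from -0.45 to -0.31. Causes were not tested. Depth limits genes at a few counts. Most folds of genes with at most 3 counts summed over a group are given as bounds or with intervals. Fitted values at few counts, such as those of Hey2 and Fmod, carry neither and depend on the prior count.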

Other observations

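A search through symbol families was made after the values were seen, and their counts stand beside 13.0% higher and 11.3% lower of all tested genes. Of 7 families looked at (Padi, Serpinb, Gbp, Rgs, Kcn, Hmga and the interleukins Il10 to Il19 with their receptors), those with nearly all changes in a single direction are described here. All 4 tested Padi genes, which encode enzymes that turn arginine into citrulline, fell in EA2. Padi1 was at 4.77, 3.07, 1.90 and 1.84 CPM under DMSO and 0.994, 0.346, 0 and 0.222 CPM under alectinib (-3.03 ± 0.67, adjusted p = 0.00509), and Padi3 was at 0 in the alectinib libraries, at least 4.38-fold lower. All 3 Hmga genes, which encode architectural chromatin proteins, fell. Hmga2 was at 526, 538, 693 and 729.6 CPM under DMSO and 110.5, 73.6, 90.9 and 37.2 CPM under alectinib and Hmga1 at 671, 793, 1206 and 1049 CPM under DMSO and 88.5, 54.2, 46.0 and 33.0 CPM under alectinib. Neither overlapped between groups, with log2 fold changes of -3.07 ± 0.34 (adjusted p = 3.26e-05) and -4.13 ± 0.44 (adjusted p = 3.05e-05). Hmga1b is a near-identical copy of Hmga1 with which it may share reads.

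Among guanylate-binding proteins, interferon-inducible GTPases, 5 of 7 rose. Gbp9 was at 9.73, 8.91, 5.50 and 7.46 CPM under DMSO and 61.8, 41.7, 55.6 and 33.2 CPM under alectinib (2.59 ± 0.29, adjusted p = 3.26e-05). Of 13 Serpinb genes, intracellular serine protease inhibitors, 8 rose and 1, Serpinb2, fell. Serpinb9, an inhibitor of granzyme B, was at 30.4, 29.5, 13.99 and 17.5 CPM under DMSO and 121, 115, 104 and 128 CPM under alectinib, higher in every alectinib library (2.42 ± 0.28, adjusted p = 4.4e-05). Several Serpinb9 genes are close copies, so that their counts may not be independent. The other families moved both ways, with 3 Rgs genes higher and 5 lower of 12, 3 Kcn genes higher and 7 lower of 26, and 3 of the interleukin group higher and 3 lower of 17.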
